A study of Homo sapiens with 60 samples.

Results

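The genes described here are 7 chemokine genes whose products recruit neutrophils, monocytes and lymphocytes: CXCL8, CXCL1, CXCL2, CXCL3, CXCL5, CCL2 and CCL20. They were found by matching the Ensembl identifiers of the deposited count table to gene symbols, and all 7 were among the 60675 genes of the table. A549, a long-established line of human lung carcinoma cells with epithelial features, was the source of RNA, which was sequenced after 24 h of treatment in 60 libraries, 3 in each of 20 groups. The vehicle group received DMSO, at 0.1% in the sample labels and 2% in the design text, and the positive control received wortmannin, a PI3-kinase inhibitor, at 10 µM. The other 18 groups received 1 of 6 crude drugs, extracted with hot water, at a high, medium or low dose. These were 500, 100 and 20 µg/mL for 4 of them: Pinelliae Tuber (PT), the jujube Zizyphi Fructus (ZF), and the gingers Zingiberis Rhizoma (ZR, dried) and Zingiberis Rhizoma Recens (ZRR, fresh by name). For Scutellariae Radix (SR) the doses were 230, 46 and 9.2 µg/mL. For Coptidis Rhizoma (CR) they were 130, 26 and 5.2 µg/mL. The design text sets the high dose of an extract at its IC20 where that lies under 500 µg/mL, so the high doses of SR and CR were chosen in another way than those of the other 4 extracts. Per the labels' protocols all plants were dried before extraction, which includes the drug named for fresh ginger. Whether the 3 replicates came from separate cultures is not in the labels. The p-values therefore measure the spread between these libraries only, and that spread may be technical.

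Chemokines are small secreted proteins that guide white blood cells along a concentration gradient by binding G-protein-coupled receptors. CXCL8 (interleukin 8) and its relatives CXCL1, CXCL2, CXCL3 and CXCL5 carry the ELR motif before their CXC cysteines and attract neutrophils through CXCR2, and CXCL8 also binds CXCR1. CCL2 attracts monocytes through CCR2, and CCL20 attracts dendritic cells and lymphocytes that carry CCR6. In airway epithelium these genes are known to be induced by interleukin 1, tumour necrosis factor and microbial products, mainly through NF-kB and, for CXCL8, also AP-1.

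The 5 CXCL genes lie together on chromosome 4 (GRCh38, GENCODE 29 gene models), from chr4:73740506-73743716 for CXCL8 to chr4:74097035-74099293 for CXCL2. CXCL1 is at chr4:73869393-73871242, CXCL5 at chr4:73995642-73998779 and CXCL3 at chr4:74036589-74038807. CCL2 is at chr17:34255218-34257203 and CCL20 at chr2:227805739-227817564. All 7 are protein-coding, and no exon of another gene overlaps theirs. Promoter sequence was found for 6 of the 7 genes in RefSeq (GRCh38.p14). The 120 bases before the RefSeq start of each are shown because they hold the short motif that the CXCL members have in common, 5′ to 3′ on the strand of the gene. Some gene models of GENCODE 29 begin farther upstream, so that part of the window lies inside the annotated gene for CXCL8, CXCL2, CXCL3 and CXCL5, and all of it for CCL20. Capitals mark GGAATTTCC in the CXCL genes and GGGAAAACC in CCL20, letters of the type that NF-kB proteins bind.
CXCL8, chr4:73740449-73740568, plus strand: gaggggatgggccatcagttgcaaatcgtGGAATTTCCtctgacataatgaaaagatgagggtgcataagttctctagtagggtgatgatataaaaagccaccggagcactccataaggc
CXCL1, chr4:73869273-73869392, plus strand: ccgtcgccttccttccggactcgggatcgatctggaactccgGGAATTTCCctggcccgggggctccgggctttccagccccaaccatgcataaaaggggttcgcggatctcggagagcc
CXCL2, chr4:74099196-74099315, minus strand: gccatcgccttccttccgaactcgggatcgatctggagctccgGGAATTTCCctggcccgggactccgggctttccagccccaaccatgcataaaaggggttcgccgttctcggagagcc
CXCL3, chr4:74038690-74038809, minus strand: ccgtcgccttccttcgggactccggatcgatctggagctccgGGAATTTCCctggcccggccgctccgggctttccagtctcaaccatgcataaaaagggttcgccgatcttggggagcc
CXCL5, chr4:73998678-73998797, minus strand: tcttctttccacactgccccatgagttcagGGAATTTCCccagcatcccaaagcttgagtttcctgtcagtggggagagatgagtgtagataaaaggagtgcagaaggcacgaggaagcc
CCL20, chr2:227813722-227813841, plus strand: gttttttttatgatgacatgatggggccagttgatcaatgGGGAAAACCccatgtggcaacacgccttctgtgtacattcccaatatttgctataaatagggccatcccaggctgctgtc

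GGAATTTCC was present in all 5 CXCL promoters, at 91 to 83 bases before the start in CXCL8, 78 to 70 in CXCL1 and CXCL3, 77 to 69 in CXCL2 and 90 to 82 in CXCL5. Of 35116 RefSeq promoters, 0.413% hold these letters on either strand within 250 bases before the start. The letters GGGAAAACC stand 80 to 72 bases before the start of CCL20 and occur in 0.393% of promoters. TGACTCA, the AP-1 motif, was found in the same 250 bases of CXCL8 alone among the 6, at 137 to 131 bases before the start, upstream of the printed window. It occurs in 4.2% of promoters. The 3 motifs do not overlap one another in these promoters, and they were chosen after the promoters had been read.

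Libraries held 17420373 to 36479629 estimated counts. Levels are given as CPM, the count as a share of the library in parts per 1000000, computed by edgeR with its TMM factors, and a level with ± shows mean and SD of 3 libraries. Log2 fold changes with ± show the standard error. A gene was called at a Benjamini-Hochberg adjusted p under 0.05 over all 17129 tested genes of a comparison, in edgeR's quasi-likelihood test on all 60 libraries. Keratin 8 and keratin 18 were among the abundant genes in every group. KRT8 fell from 3267 CPM in vehicle to 2520 with ZR high and 2045 with CR high (-0.37 ± 0.08 and -0.68 ± 0.08, edgeR adjusted p = 0.000578 and 2.92e-10), and KRT18 fell in the same groups (-0.34 ± 0.09 and -0.57 ± 0.09, edgeR adjusted p = 0.0114 and 8.17e-07). KRT19 and NQO1, of the same list of A549 markers, rose with CR high, from 20.2 to 30.8 CPM and from 1572 to 1861 CPM. Log2 fold changes were 0.61 ± 0.11 and 0.24 ± 0.07 (edgeR adjusted p = 6.22e-06 and 0.00397). The sum of 7 A549 markers was 14931 to 15864 CPM with ZR high and 14806 to 15101 CPM with CR high, below the vehicle libraries at 16672 to 17273 CPM, while PT high was at 16722 to 18866 and SR high at 16806 to 17893 CPM. CDKN2A, which A549 cells lack, had 0 counts in all 60 libraries. Among 13 leukocyte markers the neutrophil receptor FCGR3B was at 0 in all libraries, and PTPRC, which encodes the pan-leukocyte protein CD45, had at most 1 count in a library. The summed leukocyte list ranged from 8.21 to 10.8 CPM in the vehicle libraries, from 12.1 to 14.4 CPM with ZR high, from 11.4 to 13.5 CPM with CR high and from 12.1 to 14.2 CPM with wortmannin. CD68 made up most of it, at 5.79 CPM in vehicle, 9.99 CPM with ZR high and 9.12 CPM with CR high. CD14, of the same list, fell from 1.82 CPM in vehicle to 0.902 CPM with CR high and 1.21 CPM with SR high. These changes were -1.01 ± 0.22 and -0.58 ± 0.21 (edgeR adjusted p = 0.000166 and 0.0419), while wortmannin raised CD14 to 3.44 CPM. The part of either marker list in the chemokine results was not tested. In bulk RNA, more cells that express a gene and more RNA per cell cannot be told apart.

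Vehicle-treated A549 cells already expressed CXCL5 strongly. Per kilobase of the longest transcript, the vehicle level was 33.4 CPM for CXCL5, 5.95 for CCL2, 2.01 for CXCL2, 0.933 for CXCL1, 0.922 for CXCL3, 0.514 for CXCL8 and 0.238 for CCL20. CXCL5 therefore made up 76.0% of the summed per-kilobase level of the 7 genes and CCL2 13.5%. With PT high the sum was 106 CPM per kilobase against 44.0 in vehicle, and the share of CXCL5 was 67.1%. ZR high, SR high and CR high reached sums of 90.7, 90.6 and 90.8. The 3 sums were close to one another while the genes behind them differed, as given gene by gene below.

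**Figure D1:**
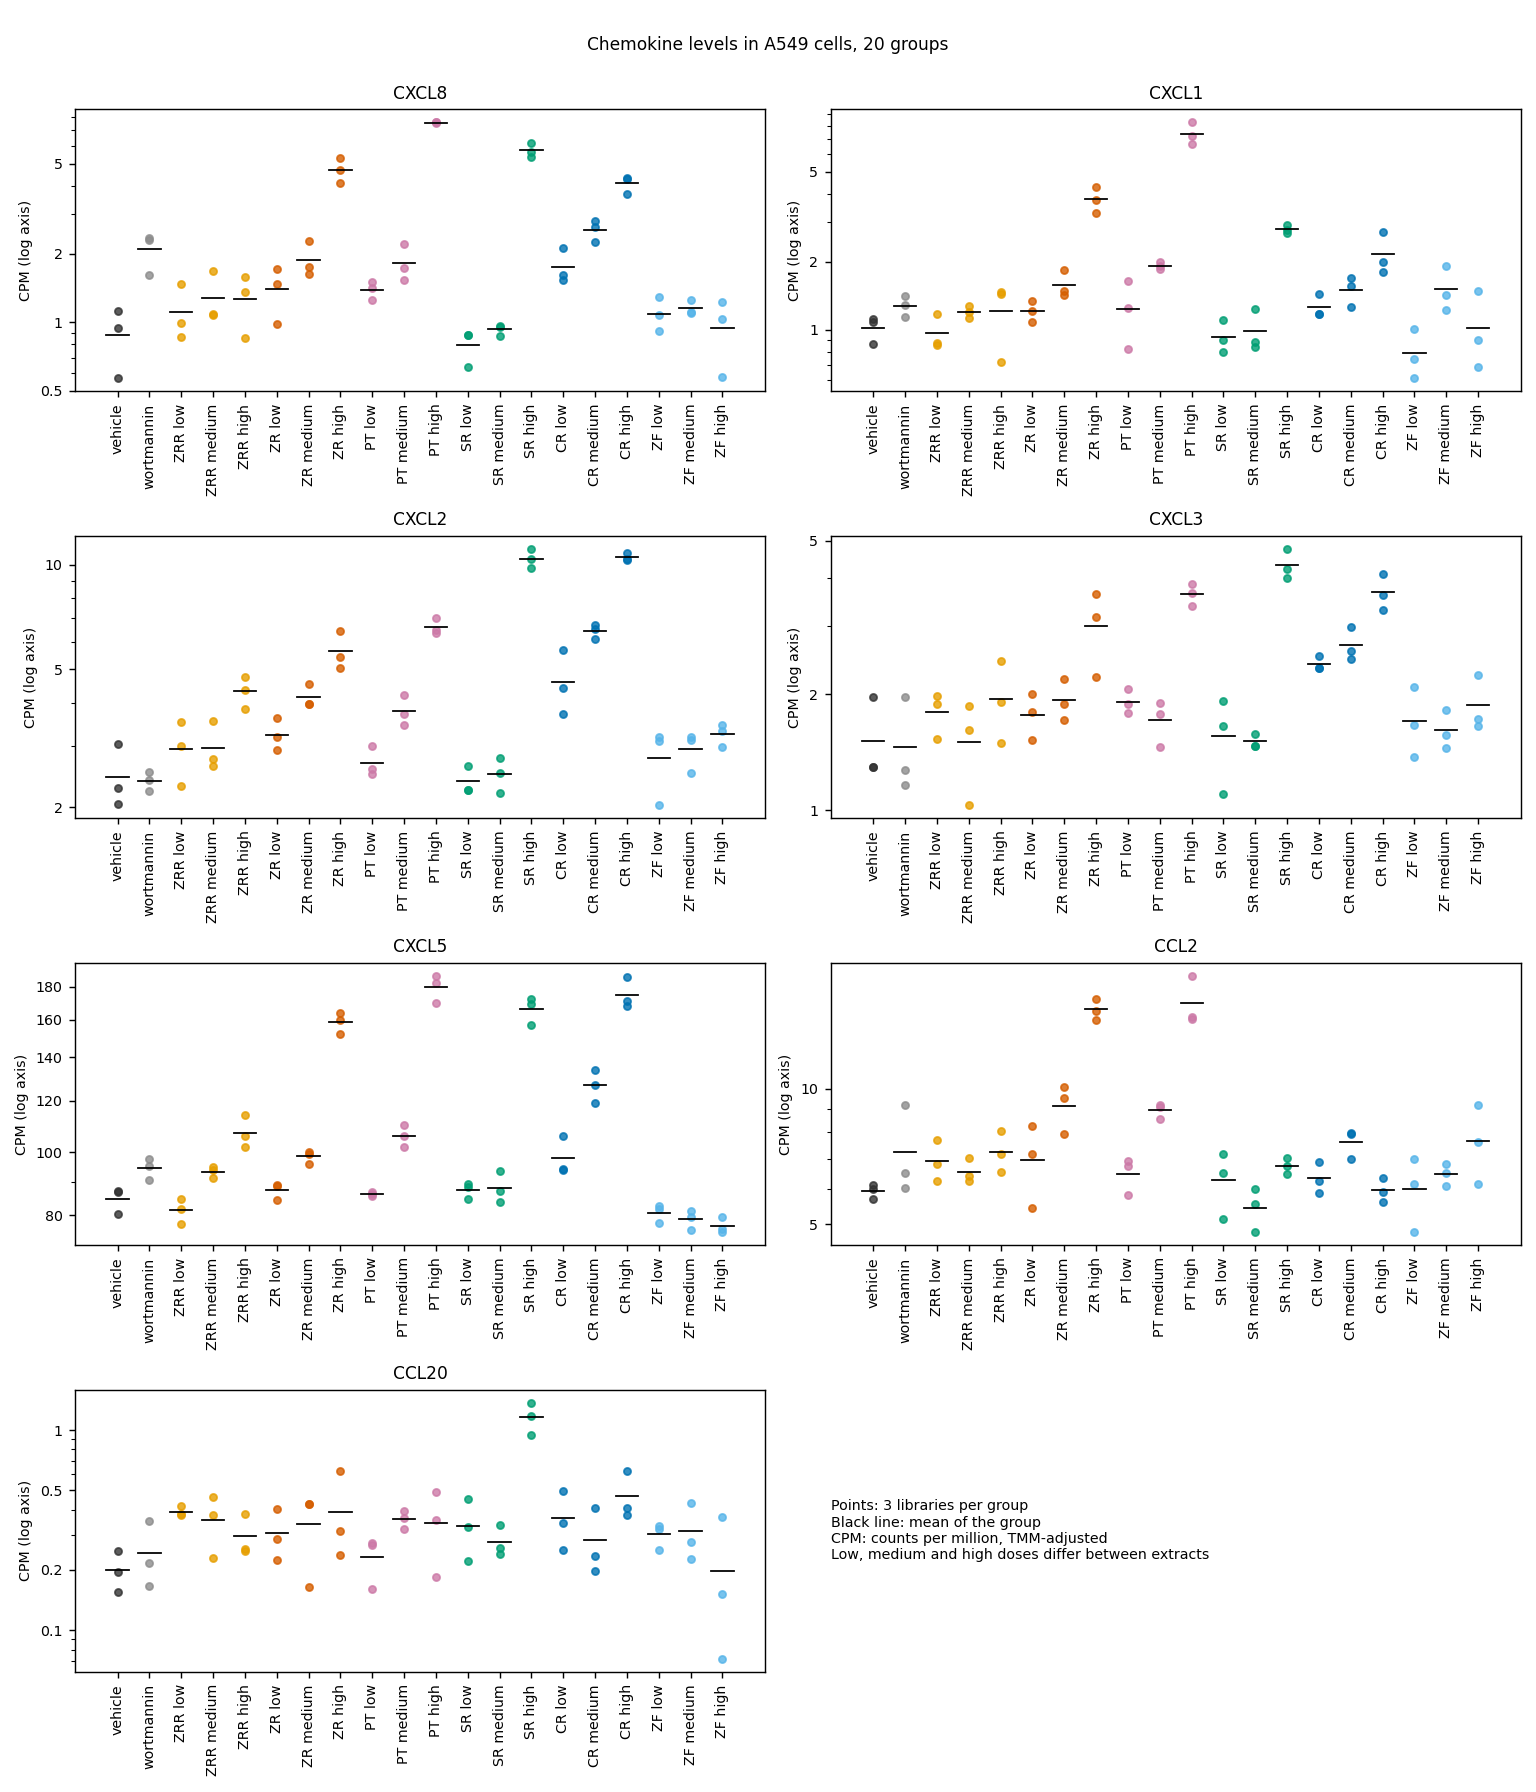
Level of each chemokine gene (CPM, log axis) in the 20 groups on the horizontal axis, with 1 point per library and a black line at the mean of 3. CXCL8 was highest with PT high at 7.57 CPM, CCL20 stood out with SR high at 1.16 CPM, and CCL2 was highest with PT high at 15.5 CPM and ZR high at 15.0 CPM.

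CXCL8, the principal human neutrophil chemokine, had the largest change. Vehicle libraries held 1.12, 0.941 and 0.568 CPM, while PT high libraries held 7.54, 7.58 and 7.61 CPM. SR high gave 5.61, 5.33 and 6.18 CPM. ZR high gave 4.67, 5.30 and 4.11 CPM and CR high 3.67, 4.29 and 4.32 CPM. All libraries of these 4 groups lay above all vehicle libraries, and the first 3 positions in the order of the 20 groups were PT high, SR high and ZR high, each without overlap with the next except ZR high with CR high. CXCL8 rose by a log2 fold change of 3.07 ± 0.20 with PT high (edgeR adjusted p = 1.66e-15), 2.67 ± 0.21 with SR high (2.08e-14), 2.38 ± 0.21 with ZR high (7.99e-12) and 2.19 ± 0.21 with CR high (6.81e-12). Below them came CR medium with 2.26, 2.64 and 2.78 CPM and wortmannin with 1.62, 2.36 and 2.31 CPM. Of the 7 genes CXCL8 had the largest change under wortmannin, at 1.23 ± 0.23 log2 (edgeR adjusted p = 5.75e-05). In ZRR high the 3 libraries held 1.59, 1.36 and 0.851 CPM, which overlapped the vehicle libraries (0.48 ± 0.26, edgeR adjusted p = 0.401). The lowest group was SR low at 0.799 CPM, against 0.877 CPM in vehicle. Of the 19 steps between neighbours in the order, 16 were within the spread of the libraries.

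CXCL1, a CXCR2 ligand, was highest with PT high. Its vehicle libraries were at 1.12, 0.863 and 1.08 CPM and its PT high libraries at 7.21, 8.32 and 6.62 CPM, a rise of 2.85 ± 0.20 (edgeR adjusted p = 1.75e-14). ZR high libraries were at 3.29, 4.31 and 3.76 CPM and SR high libraries at 2.78, 2.92 and 2.67 CPM. In CR high they were at 1.80, 2.71 and 1.99 CPM. PT high, ZR high and SR high were separated from one another without overlap, and all 12 libraries of the 4 groups lay above vehicle. Log2 fold changes were 1.89 ± 0.22 with ZR high, 1.45 ± 0.22 with SR high and 1.09 ± 0.23 with CR high (edgeR adjusted p = 6.85e-09, 1.46e-06 and 0.000108). Levels with PT medium were 1.92, 1.86 and 1.99 CPM, all above vehicle but not called (0.91 ± 0.23, edgeR adjusted p = 0.266).

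CXCL2, another CXCR2 ligand, was ordered differently, with CR and SR ahead of PT. CR high libraries held 10.4, 10.8 and 10.3 CPM and SR high libraries 11.1, 10.4 and 9.81 CPM, against 2.04, 2.27 and 3.05 CPM in vehicle. The next group, PT high, held 6.36, 7.02 and 6.50 CPM and did not overlap with either of them. CXCL2 rose by 2.11 ± 0.14 with CR high, 2.10 ± 0.14 with SR high, 1.45 ± 0.15 with PT high and 1.21 ± 0.15 with ZR high (edgeR adjusted p = 2.27e-17, 1.16e-16, 8.77e-10 and 5.10e-08). ZRR high libraries, at 4.76, 4.36 and 3.83 CPM, also lay above all vehicle libraries (0.83 ± 0.16, edgeR adjusted p = 0.000343). In the wortmannin group CXCL2 was at 2.40, 2.23 and 2.53 CPM, inside the range of vehicle (-0.02 ± 0.17).

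CXCL3, a close relative of CXCL2, rose in the same 4 high-dose groups with smaller fold changes. Vehicle libraries were at 1.29, 1.96 and 1.29 CPM. SR high libraries were at 4.00, 4.76 and 4.22 CPM, those of CR high at 3.30, 4.09 and 3.61 CPM, those of PT high at 3.39, 3.65 and 3.86 CPM and those of ZR high at 3.16, 3.63 and 2.21 CPM. All 12 lay above vehicle, but the ranges of neighbouring groups overlapped throughout the order of 20 groups. The log2 fold changes were 1.50 ± 0.19, 1.26 ± 0.19, 1.24 ± 0.19 and 0.96 ± 0.20 in that order (edgeR adjusted p = 2.51e-08, 5.15e-07, 4.50e-05 and 0.000834). CXCL1, CXCL2 and CXCL3 are close paralogs, so reads could in principle be shared between them. No stretch of 100 bases, the read length, of any of the 7 longest transcripts occurs in another gene, and estimated counts of CXCL2 and CXCL3 had decimals in 1 of 60 libraries, CR high replicate 1.

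CXCL5, which also signals through CXCR2, started from the highest level and had, in the 4 groups with 6 calls, the smallest called fold changes with the narrowest errors. Vehicle libraries held 80.5, 87.1 and 86.9 CPM. PT high libraries held 182, 170 and 187 CPM, CR high 168, 186 and 171 CPM, SR high 169, 157 and 172 CPM and ZR high 160, 164 and 152 CPM. These 4 groups stood apart from the fifth, CR medium, at 119, 134 and 127 CPM. Rises were 1.09 ± 0.05 with PT high, 1.05 ± 0.05 with CR high, 0.97 ± 0.05 with SR high and 0.90 ± 0.05 with ZR high (edgeR adjusted p = 2.61e-21, 2.33e-22, 1.15e-20 and 1.31e-18). With ZRR high the libraries held 106, 114 and 102 CPM (0.34 ± 0.05, edgeR adjusted p = 8.31e-06). CXCL5 had 1594 to 6683 counts per library, against 11 to 276 for CXCL8, which is the depth behind its smaller errors. ZF high was the only group whose CXCL5 libraries, at 79.5, 76.2 and 75.4 CPM, all lay below vehicle, and the difference was not called (-0.14 ± 0.05, edgeR adjusted p = 0.351). Wortmannin raised CXCL5 by 0.16 ± 0.05 (edgeR adjusted p = 0.0192), a call that ended without vehicle replicate 1 (0.12), wortmannin replicate 2 (0.13) or wortmannin replicate 3 (0.15), and without the filter on low counts (0.15).

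CCL2, the monocyte chemokine, rose with PT and ZR and was not called with SR or CR. Vehicle libraries were at 6.11, 5.69 and 5.99 CPM. PT high libraries were at 14.4, 17.8 and 14.3 CPM and ZR high libraries at 14.2, 15.8 and 14.9 CPM, so these overlapped each other and lay above every other group. SR high libraries were at 6.74, 6.46 and 7.01 CPM and CR high libraries at 5.61, 6.35 and 5.90 CPM. CCL2 rose by 1.38 ± 0.13 with PT high and 1.34 ± 0.14 with ZR high (edgeR adjusted p = 3.89e-10 and 3.01e-10). It was not called with SR high (0.19, 95% confidence interval -0.11 to 0.48, edgeR adjusted p = 0.396) or with CR high (0.01, interval -0.28 to 0.30, edgeR adjusted p = 0.977). Both intervals exclude a doubling, which is 1.00 on the log2 scale and which the 5 CXCL members approached or passed in these groups. ZRR high libraries, at 8.04, 6.54 and 7.15 CPM, lay above vehicle without a call (0.29 ± 0.15, edgeR adjusted p = 0.351).

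CCL20, the CCR6 ligand, was near the limit of detection except with SR high. Its counts were 2 to 29 per library, and it passed the filter through 12 of 60 libraries at 0.416 CPM or more, none of them vehicle. It therefore passed only because of the groups in which it was high. Vehicle libraries were at 0.249, 0.196 and 0.155 CPM and SR high libraries at 0.942, 1.37 and 1.17 CPM, above every other group without overlap. CR high came next with 0.408, 0.378 and 0.623 CPM. CCL20 rose by 2.49 ± 0.38 with SR high (edgeR adjusted p = 1.01e-06). The rise of 1.17 ± 0.42 with CR high (edgeR adjusted p = 0.0240) was not called by DESeq2 (1.18), without the filter (1.18), or without vehicle replicate 2 (1.15), vehicle replicate 3 (1.05) or CR high replicate 3 (0.94). PT high libraries were at 0.491, 0.185 and 0.355 CPM, a spread that left the gene uncalled (0.82, interval -0.05 to 1.69, edgeR adjusted p = 0.306).

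Counted by treatment against vehicle, all calls were rises, and 0 of the 7 genes fell in any of the 19 comparisons, which share the 3 vehicle libraries. PT high raised 6 of the 7 while 1.07% of all tested genes rose. ZR high raised the same 6 genes, all but CCL20, against 2.91% of all genes. SR high and CR high each raised 6 genes, all but CCL2, against 13.0% and 18.5% of all genes. Both counts include CCL20, which passed the filter only through groups in which it was high, and its call with CR high was lost in DESeq2, without the filter and without any 1 of 3 single libraries. Apart from CCL20, 5 members were called in each of these groups. ZRR high raised 2, CXCL2 and CXCL5, against 2.25%, and wortmannin 2, CXCL8 and CXCL5, against 13.4%. The median log2 fold change of the 7 was 1.38 with PT high, 1.50 with SR high, 1.21 with ZR high, 1.17 with CR high, 0.34 with ZRR high and 0.25 with wortmannin, where that of all tested genes lay between 0.00 and 0.01. With ZF the edgeR test called 0 members at each dose (background of 0.00584% at high and 0.0117% at medium and low), and DESeq2 also called 0. At an unadjusted p under 0.05 there were 3 at ZF high (CXCL2, CXCL5 and CCL2), 1 at medium (CXCL1) and 0 at low.

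**Figure D2:**
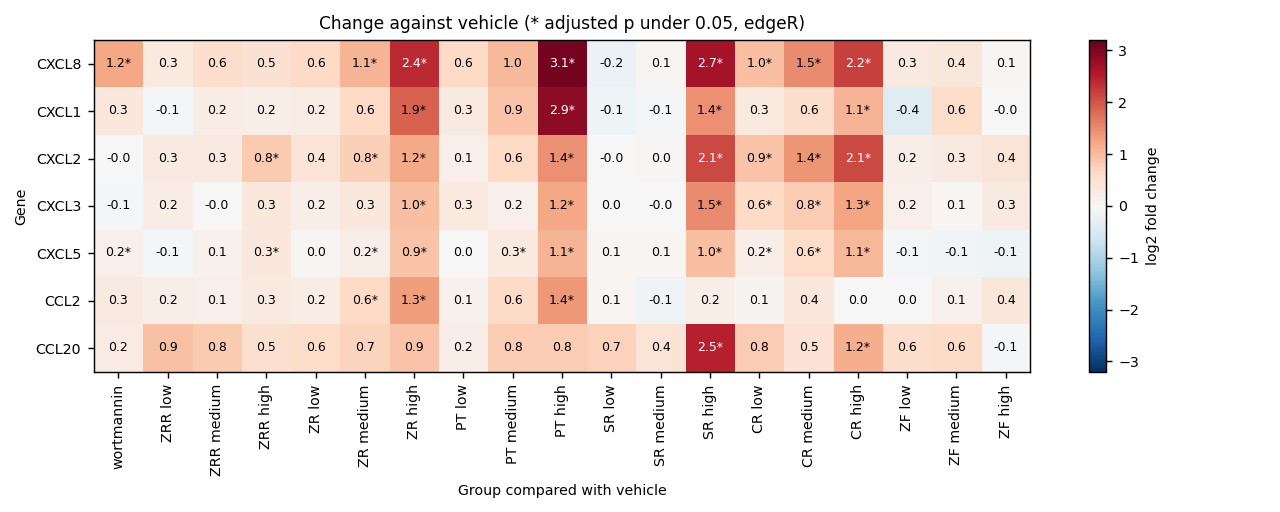
Log2 fold change of each gene (rows) in each treated group (columns) against vehicle, as colour and number, with an asterisk at an edgeR adjusted p under 0.05. The high doses of ZR, PT, SR and CR carry asterisks for 6 genes each, CR low, CR medium and ZR medium for 4 each, ZRR high and wortmannin for 2 each and PT medium for 1, and CCL2 carries none with SR or CR.

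Sample codes of vehicle libraries begin with A1, those of wortmannin with 1, the gingers with 2, PT and SR with 3, and CR and ZF with 4. What the number marks is not given, so a difference from vehicle cannot be told apart from a difference between these codes, whereas doses of an extract share a number. Fold changes against vehicle also varied with transcript length. Across 17016 genes, which are not independent replicates, the Spearman correlation with length was -0.350 with PT high, -0.131 with ZR high, -0.149 with SR high, -0.093 with CR high and -0.436 with ZR medium. The longest transcripts of the 7 genes have 839 to 2538 bases, against a median of 3212 for tested genes. With the length slope of each library as a covariate, the same 6 genes were called in each of the 4 high-dose groups.

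Within an extract, high against low compares libraries of one code number. With PT all members but CCL20 rose, 6 of 7 against 0.397% of all genes, led by CXCL1 at 2.57 ± 0.19 and CXCL8 at 2.44 ± 0.19 (edgeR adjusted p = 2.04e-13 and 2.45e-13). The 6 genes that rose with SR were all but CCL2, against 11.1% of all genes, with CXCL8 at 2.85 ± 0.22, CXCL2 at 2.12 ± 0.14 and CCL20 at 1.76 ± 0.35 (edgeR adjusted p = 6.03e-15, 1.05e-16 and 0.000109). CCL20 passed the filter only through groups in which it was high and had no DESeq2 adjusted p in that comparison, where DESeq2 called 5. ZR raised 6 of 7 against 2.46% of all genes, with CXCL8 at 1.75 ± 0.20, CXCL1 at 1.65 ± 0.21 and CCL2 at 1.11 ± 0.13 (edgeR adjusted p = 8.26e-09, 1.34e-07 and 3.18e-08). The smallest of these, CXCL3 at 0.75 ± 0.20, lost its call without ZR high replicate 1 (0.71), ZR low replicate 1 (0.65) or ZR high replicate 2 (0.59). In a fit of only the libraries compared, CXCL2 (0.79) and CXCL3 (0.75) were not called. CR raised 5 of 7 against 13.1%, with CXCL8 at 1.23 ± 0.19 and CXCL2 at 1.20 ± 0.13 (edgeR adjusted p = 1.88e-06 and 2.60e-10). The rises of CXCL1 (0.77 ± 0.22) and CXCL3 (0.62 ± 0.18) with CR were lost without CR high replicate 2, at 0.56 and 0.52. ZRR raised 2 of 7 against 2.47%, CXCL5 by 0.40 ± 0.05 (edgeR adjusted p = 3.40e-07) and CXCL2 by 0.55 ± 0.15 (adjusted p = 0.0275). The latter call was lost without replicate 1 of ZRR high (0.47) or ZRR low (0.55), without replicate 2 of ZRR high (0.54) or ZRR low (0.40), and in a fit of only those libraries (0.54). ZF high against ZF low called 0 of 7 in edgeR and in DESeq2, with a background of 0%, and CCL2 alone was under an unadjusted p of 0.05.

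With SR, calls appeared at the high dose only, with CXCL8 at 0.963, 0.875 and 0.955 CPM at 46 µg/mL and 5.61, 5.33 and 6.18 CPM at 230 µg/mL. SR medium and SR low called 0 of 7 against vehicle in edgeR and DESeq2, with 0 at an unadjusted p under 0.05, where 0% and 0.00584% of all genes rose. Between medium and high, 6 of 7 were called against 11.0% of all genes (CXCL8 2.61 ± 0.21, edgeR adjusted p = 1.99e-14). The 6 include CCL20, which passed the filter only through groups in which it was high. DESeq2 called 5 and gave no adjusted p for CCL20.

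With CR, calls appeared from the lowest dose. CXCL8 was at 1.53, 1.62 and 2.12 CPM at 5.2 µg/mL, 2.26, 2.64 and 2.78 CPM at 26 µg/mL and 3.67, 4.29 and 4.32 CPM at 130 µg/mL, and no library of one dose overlapped with the next. CXCL2 was at 3.72, 4.40 and 5.66 CPM, then 6.69, 6.10 and 6.51 CPM, then 10.4, 10.8 and 10.3 CPM, again without overlap. Against vehicle, CR low raised CXCL8, CXCL2, CXCL3 and CXCL5, 4 of 7 against 8.51% of all genes, with CXCL8 at 0.96 ± 0.24 and CXCL2 at 0.91 ± 0.15 (edgeR adjusted p = 0.00461 and 2.78e-05). Without CR low replicate 3 the calls of CXCL3 (0.61) and CXCL5 (0.15) were lost and 2 remained. CXCL3 also lost its call without vehicle replicate 1 (0.55) or vehicle replicate 3 (0.56). CR medium raised 4 genes against 12.1%, with CXCL8 at 1.51 ± 0.23 and CXCL2 at 1.41 ± 0.15 (edgeR adjusted p = 9.97e-07 and 1.52e-10). Between medium and low, 2 of 7 were called against 1.60% of all genes, CXCL5 at 0.37 ± 0.05 and CXCL2 at 0.49 ± 0.13 (edgeR adjusted p = 1.33e-06 and 0.0278). The CXCL2 call was lost without replicate 1, 2 or 3 of CR medium (0.46, 0.53 and 0.48) and without replicate 1 or 2 of CR low (0.37 and 0.46), and a fit of only those libraries called 0. Between high and medium, 3 were called against 3.59%, CXCL8 at 0.67 ± 0.18, CXCL2 at 0.71 ± 0.12 and CXCL5 at 0.47 ± 0.05 (edgeR adjusted p = 0.0113, 5.03e-05 and 2.46e-09). The CXCL8 call was lost without CR medium replicate 1 (0.59), CR high replicate 2 (0.63) or CR high replicate 3 (0.63).

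CCL2 did not follow the CR doses. Its libraries were at 5.88, 6.23 and 6.89 CPM at the low dose, 7.92, 7.99 and 6.98 CPM at the medium dose and 5.61, 6.35 and 5.90 CPM at the high dose. The medium libraries lay above both other doses, and neither the step from low to medium (0.27 ± 0.14, edgeR adjusted p = 0.417) nor that from medium to high (-0.36 ± 0.14, adjusted p = 0.117) was called.

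The step from 100 to 500 µg/mL raised most members with PT and ZR. PT high against PT medium called 6 of 7 against 0.163% of all genes, with CXCL8 at 2.04 ± 0.18, CXCL1 at 1.94 ± 0.18 and CCL2 at 0.79 ± 0.13 (edgeR adjusted p = 4.66e-11, 3.10e-10 and 0.000315). ZR high against ZR medium called 5 against 2.41%, with CXCL8 at 1.30 ± 0.19, CXCL1 at 1.25 ± 0.20 and CCL2 at 0.71 ± 0.13 (edgeR adjusted p = 5.26e-06, 2.87e-05 and 0.000288). DESeq2 called 3, of which 2 were among these 5, and gave no adjusted p for CXCL8, CXCL1 and CXCL3. With the length slope as a covariate 6 were called, including the 5. CXCL2 was at 0.77 over vehicle at the medium dose of ZR and 1.21 at the high dose. The step between them was just short of a call (0.44 ± 0.14, edgeR adjusted p = 0.0566). Its libraries at the high dose, 6.44, 5.03 and 5.42 CPM, lay above those at the medium dose, 4.52, 3.98 and 3.97 CPM. The ZR call of CXCL3 (0.63 ± 0.19, edgeR adjusted p = 0.0451) was lost without replicate 1 or 2 of ZR high (0.59 and 0.46) and without replicate 1, 2 or 3 of ZR medium (0.73, 0.55 and 0.61). ZRR high against ZRR medium called CXCL5 alone (0.20 ± 0.05, edgeR adjusted p = 0.0337), 1 of 7 against 0.811%. That call was lost in 5 of the 6 fits without 1 library, all but that without ZRR high replicate 3, at 0.15 to 0.20.

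At the medium dose, ZR raised CXCL8, CXCL2, CXCL5 and CCL2 against vehicle, 4 of 7 against 0.444% of all genes, at 1.08 ± 0.24, 0.77 ± 0.16, 0.22 ± 0.05 and 0.63 ± 0.14 (edgeR adjusted p = 0.0138, 0.00664, 0.0217 and 0.0161). CCL2 was at 9.52, 7.93 and 10.1 CPM there, above all vehicle libraries. These calls rested on single libraries. The count was 0 without vehicle replicate 2, 3 without vehicle replicate 3, 1 without vehicle replicate 1, ZR medium replicate 1 or ZR medium replicate 3, 1 with DESeq2 and 2 with the length slope as a covariate. DESeq2 gave no adjusted p for CXCL8, CXCL2 and CCL2 there, and these were counted as not called. PT medium raised CXCL5 alone by 0.32 ± 0.05 (edgeR adjusted p = 0.00107), 1 of 7 against 0.00584% of all genes. That share is 1 of 17129 genes, which is CXCL5 itself. At an unadjusted p under 0.05 there were 5 members with PT medium (CXCL8, CXCL1, CXCL2, CXCL5 and CCL2). The CXCL5 call was lost without vehicle replicate 1 (0.29) or PT medium replicate 2 (0.29). With the length slope as a covariate 3 members were called, and without the filter on low counts 5. PT medium against PT low also called CXCL5 alone (0.29 ± 0.05, edgeR adjusted p = 0.00599), 1 of 7 against 0.0117%, and the call was lost in 5 of the 6 fits without 1 library, all but that without PT medium replicate 1 (0.27 to 0.30). In that comparison 4 members were under an unadjusted p of 0.05 (CXCL1, CXCL2, CXCL5 and CCL2).

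In the remaining low and medium groups edgeR and DESeq2 called 0 of 7 against vehicle. At an unadjusted p under 0.05 there were 2 genes with ZRR medium (CXCL8 and CXCL5), 1 with ZRR low (CCL20), 2 with ZR low (CXCL8 and CXCL2) and 1 with PT low (CXCL8). The shares of all genes that rose there were 0.146% with ZRR medium, 0.0642% with ZRR low, 0.00584% with ZR low and 0% with PT low. Between medium and low, edgeR and DESeq2 called 0 members in ZRR, ZR, SR and ZF, and 1, 3, 0 and 1 were under an unadjusted p of 0.05 (backgrounds of 0.00584%, 0.0117%, 0% and 0%). ZF high against ZF medium also called 0 in both tools against 0%, with CXCL1 under an unadjusted p of 0.05.

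**Figure D3:**
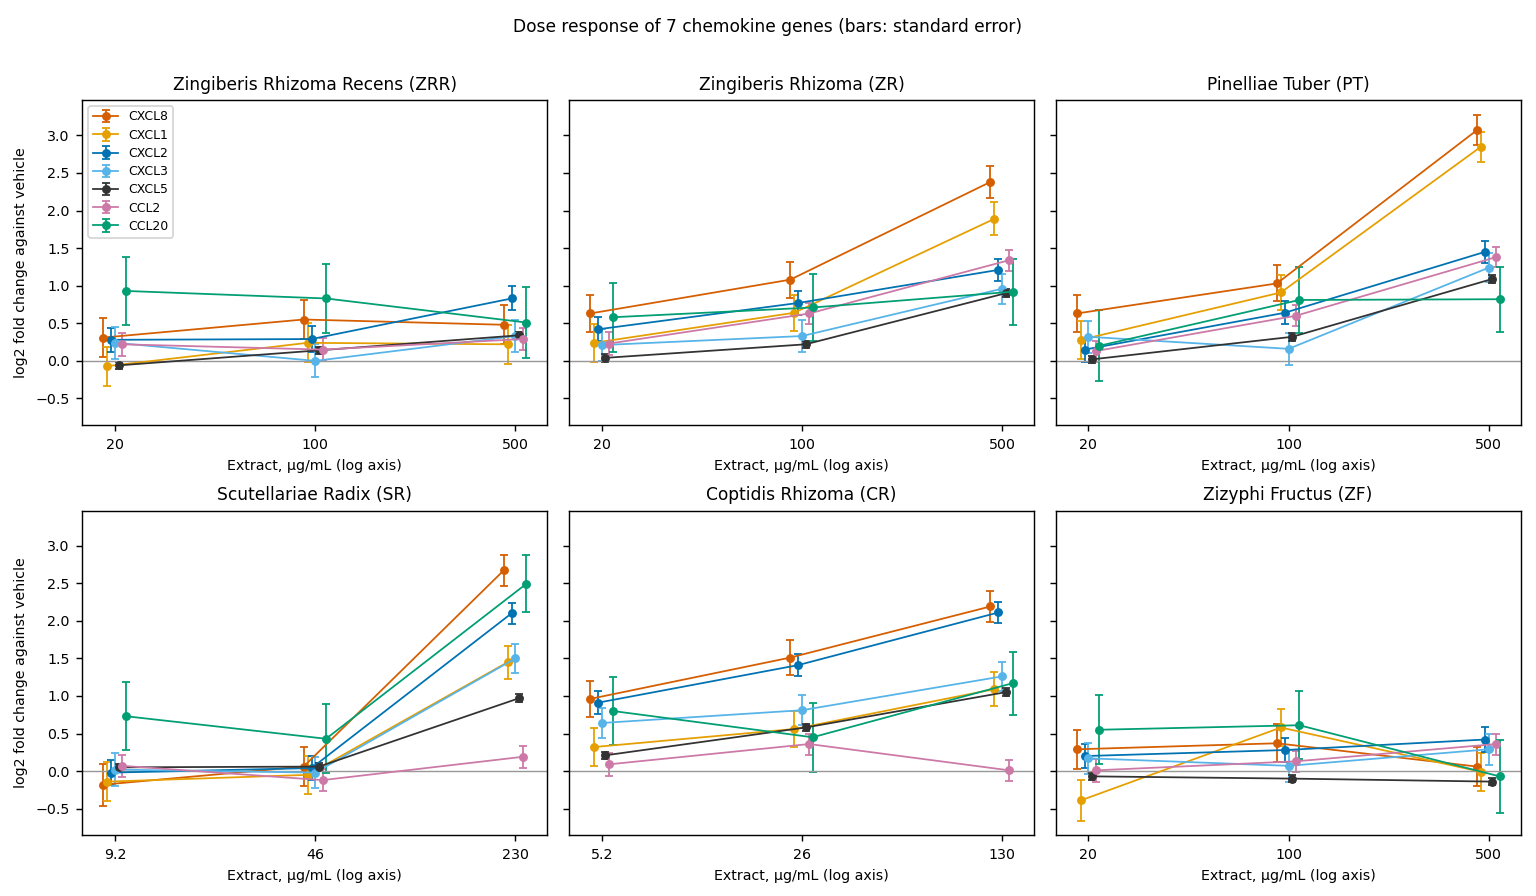
Log2 fold change against vehicle (vertical axis, bars are standard errors) of the 7 genes at the 3 doses of each extract in µg/mL (log axis). With CR, CXCL8 is at 0.96 at the lowest dose, with SR it goes from 0.06 at 46 to 2.67 at 230 µg/mL, and with ZF it is at 0.06 at the high dose.

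The gingers were compared at matched doses. At 500 µg/mL, 4 of 7 chemokine genes were lower with ZRR than with ZR, against 0.391% of all genes. CXCL8 libraries held 1.59, 1.36 and 0.851 CPM with ZRR and 4.67, 5.30 and 4.11 CPM with ZR, a difference of -1.90 ± 0.21 (edgeR adjusted p = 2.76e-08). CXCL1 differed by -1.67 ± 0.21, from 1.44, 1.47 and 0.723 CPM with ZRR to 3.29, 4.31 and 3.76 CPM with ZR (edgeR adjusted p = 1.40e-06). The difference in CCL2 was -1.05 ± 0.13 and that in CXCL5 -0.57 ± 0.05 (edgeR adjusted p = 1.40e-06 and 1.63e-10). In these 4 genes every ZRR library lay below every ZR library. CXCL2 was at 4.32 CPM with ZRR and 5.63 CPM with ZR, also without overlap, but was not called (-0.39, interval -0.67 to -0.10, edgeR adjusted p = 0.353), nor was CXCL3 (-0.63, interval -1.02 to -0.24, edgeR adjusted p = 0.178). At 100 and 20 µg/mL edgeR and DESeq2 called 0 of 7 (backgrounds of 0.00584% and 0%), with 3 (CXCL8, CXCL2 and CCL2) and 0 at an unadjusted p under 0.05.

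A test of the difference in response itself, the high-against-low change of ZRR minus that of ZR, called 3 of 7 genes as lower against 0.0584% of all genes. It was -1.58 ± 0.33 for CXCL8, -1.04 ± 0.20 for CCL2 and -0.46 ± 0.07 for CXCL5 (edgeR adjusted p = 0.0163, 0.00661 and 0.00117). CXCL1 had a difference of -1.36 ± 0.34 that was not called (edgeR adjusted p = 0.121). A fit of only the 12 libraries concerned called 0 of the 3 at similar sizes (-1.58, -1.05 and -0.47). The CXCL8 call was lost without replicate 1 of ZRR low (-1.32) or ZR low (-1.37), ZR high replicate 2 (-1.48) or ZRR high replicate 3 (-1.33), and the CCL2 call without ZR low replicate 2 (-0.89).

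PT and ZR were both given at 500 µg/mL, with different first numbers of the sample code. CXCL8, CXCL1 and CXCL5 were higher with PT, 3 of 7 against 2.21% of all genes. CXCL1 differed by 0.96 ± 0.17 (edgeR adjusted p = 0.000131) and CXCL8 by 0.69 ± 0.16 (adjusted p = 0.00594). CXCL5 differed by 0.18 ± 0.05 (edgeR adjusted p = 0.0251). DESeq2 called 2 of the 3 and gave no adjusted p for CXCL1. Without ZR high replicate 3 the CXCL8 (0.61) and CXCL5 (0.15) calls were lost, and CXCL5 lost its call also without ZR high replicate 1 (0.19), PT high replicate 1 (0.17) or PT high replicate 3 (0.15), without the filter (0.19) and in a fit of only those libraries (0.18). CCL2 was not called, at 0.05 with an interval of -0.20 to 0.29 (edgeR adjusted p = 0.882).

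Comparisons among PT, SR and CR at their high doses, added after the data were seen, are at unequal concentrations of 500, 230 and 130 µg/mL. PT high exceeded SR high in CXCL1 by 1.40 ± 0.18 and in CCL2 by 1.20 ± 0.13 and was below it in CXCL2 by -0.66 ± 0.12 and in CCL20 by -1.67 ± 0.33 (edgeR adjusted p = 2.31e-08, 8.18e-10, 5.96e-05 and 0.000118), 4 of 7 against 21.5% of all genes in either direction. PT high exceeded CR high in CXCL8 by 0.89 ± 0.16, in CXCL1 by 1.76 ± 0.18 and in CCL2 by 1.38 ± 0.13 and was below it in CXCL2 by -0.67 ± 0.12 (edgeR adjusted p = 1.84e-05, 2.12e-11, 3.73e-12 and 1.73e-05), 4 of 7 against 34.8%. CXCL1 and CXCL2 thus differed in opposite directions in both comparisons, and when CXCL1, CXCL2 and CXCL3 were summed the difference was 0.01 against SR and 0.11 against CR. SR high and CR high differed in CCL20 by 1.31 ± 0.32 and in CXCL8 by 0.48 ± 0.17 (edgeR adjusted p = 0.00143 and 0.0320), 2 of 7 against 11.1% of all genes that were higher. CCL20, counted here and in PT high against SR high, passed the filter only through groups in which it was high. The CXCL8 call was lost without SR high replicate 1 (0.50) or 3 (0.43) and without CR high replicate 1 (0.42) or 2 (0.52). Their CXCL2 levels differed by -0.01, with an interval of -0.25 to 0.23.

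**Figure D4:**
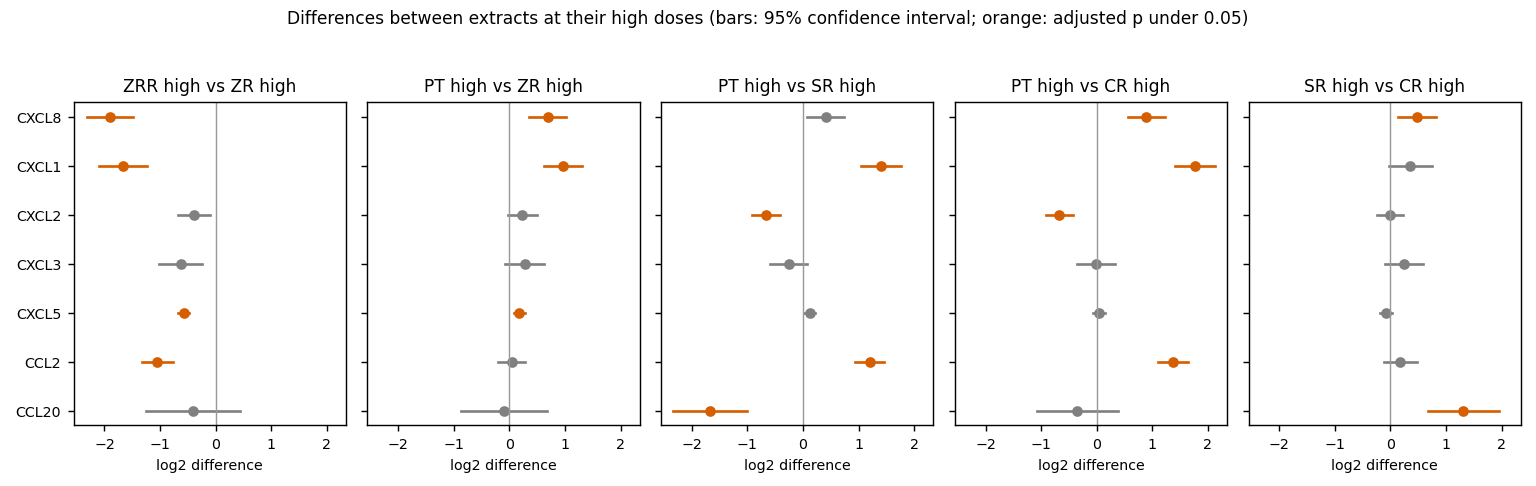
Log2 difference between extracts at their high doses (horizontal axis, points with 95% confidence intervals) for the 7 genes in 5 comparisons, orange where the edgeR adjusted p was under 0.05. ZRR lay below ZR in 4 genes, and PT lay above SR and CR in CXCL1 and CCL2 and below both in CXCL2.

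Across the 20 group means the chemokine genes fell into patterns, given here as a description without a test. On log2 CPM, Pearson r was 0.95 between CXCL2 and CXCL3, 0.94 between CXCL8 and CXCL5 and 0.92 between CXCL8 and CXCL1. It was 0.37 between CXCL2 and CCL2 and 0.04 between CCL2 and CCL20, the lowest of the 21 pairs. Among 13646 other genes with sufficient level, TNIP1, RELB, OPTN, BIRC3, DPH1, KCTD11, TNFAIP2 and IL32 had the highest r with the mean profile of the 7, from 0.906 for TNIP1 to 0.817 for IL32. RELB, an NF-kB subunit, was closest to CXCL2 (0.944), and SOD2, a mitochondrial superoxide dismutase, was closest to CXCL1 (0.890) and CCL2 (0.886). For CCL20 the closest were DUSP5, a phosphatase of ERK kinases, at 0.881 and STX16 at 0.866. All r values of CCL20, also that with CCL2, come from 2 to 29 counts per library. SR high alone stood apart from the other groups in CCL20.

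The receptors of these chemokines were almost absent from the same cells. CXCR1 and CCR2 had 0 counts in all 60 libraries, CXCR2 had at most 5 counts and CCR6 at most 4. Of 12 receptor genes listed, 2 passed the filter, CCR7 and the scavenging receptor ACKR3. Among 25 other chemokine genes 3 passed, and 1 of them, CXCL16, rose with CR high from 16.9 to 23.4 CPM (0.47 ± 0.06, edgeR adjusted p = 1.05e-08), while the eotaxin CCL26 fell from 0.748 to 0.253 CPM (-1.60 ± 0.41, adjusted p = 0.00157). CCL5, which did not pass, had a mean of 0.0131 CPM in vehicle and 0.372 CPM with ZR high, with at most 12 counts in a library.

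NF-kB subunits and feedback inhibitors were all tested, 15 of 15. With PT high 7 rose and 0 fell, with ZR high 6 and 0, with SR high and CR high 8 and 1 each, and with ZRR high and ZF high edgeR called 0. Of all tested genes 1.07% rose and 0.327% fell with PT high, 2.91% and 2.44% with ZR high, 13.0% and 10.9% with SR high, and 18.5% and 16.7% with CR high. RELB was at 13.8 CPM in vehicle, 22.6 with ZR high and PT high, 25.4 with SR high and 27.9 with CR high, rises of 0.71 ± 0.09, 0.70 ± 0.09, 0.88 ± 0.09 and 1.01 ± 0.09 (edgeR adjusted p = 2.91e-07, 1.72e-06, 2.04e-10 and 8.12e-13). TNIP1, which restrains NF-kB signalling, rose from 78.5 CPM to 100 with PT high and 104 with SR high (0.35 ± 0.05 and 0.41 ± 0.05, edgeR adjusted p = 7.69e-07 and 5.59e-10). It also rose to 101 CPM with CR high and 91.4 with ZR high (0.36 ± 0.05 and 0.22 ± 0.05, edgeR adjusted p = 4.76e-09 and 0.00100). The feedback inhibitor TNFAIP3 (A20) rose with PT high from 6.44 to 9.50 CPM (0.57 ± 0.10, edgeR adjusted p = 0.000759). Between the gingers at the high dose, 6 of these 15 were lower with ZRR, against 0.391% of all genes, and 0 higher, with BIRC3 at -0.50 ± 0.06 and RELB at -0.56 ± 0.09 (edgeR adjusted p = 1.21e-07 and 0.000241). The median difference of the list was -0.24, against 0.00 for all tested genes.

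Among 21 receptors and adaptors that can induce chemokines, 15 were tested. IRAK2, a kinase of the interleukin 1 and Toll-like receptor pathways, rose with each of the 4 extracts, from 8.36 CPM in vehicle to 11.7 with PT high, 14.7 with ZR high, 18.3 with SR high and 25.0 with CR high (0.49, 0.82, 1.14 and 1.58, each ± 0.08, edgeR adjusted p = 0.000123, 1.26e-10, 3.35e-16 and 2.54e-22). In the whole list 1 rose with PT high, 2 with ZR high and 2 with SR high and CR high, while 0, 0, 3 and 3 fell. For SR high and CR high 2 of 15 was near or below the share of all genes that rose, 13.0% and 18.5%. The shares that fell there were 10.9% and 16.7%. Over all genes 1.07% rose and 0.327% fell with PT high, and 2.91% and 2.44% with ZR high. Among the genes of the list that fell was IL1R1 with CR high, from 56.6 to 40.4 CPM (-0.49 ± 0.10, edgeR adjusted p = 0.000114). TLR4, the endotoxin receptor, and its partner LY96 had at most 3 counts in any library. Wortmannin raised 6 of the list and lowered 1, against 13.4% and 11.9% of all genes, with CD14 at 1.82 CPM in vehicle and 3.44 (0.93 ± 0.18, edgeR adjusted p = 9.52e-05).

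Of 12 cytokines 4 were tested. With PT high 2 rose and 0 fell, with ZR high 3 and 1, with SR high 2 and 0, and with CR high 3 and 1. Over all tested genes 1.07% rose and 0.327% fell with PT high, and 2.91% and 2.44% with ZR high. The shares were 13.0% and 10.9% with SR high and 18.5% and 16.7% with CR high. IL32, an inflammatory cytokine, rose from 4.34 CPM to 11.0 with PT high, 9.22 with CR high and 7.11 with ZR high (1.33 ± 0.14, 1.08 ± 0.14 and 0.71 ± 0.15, edgeR adjusted p = 2.99e-09, 1.64e-08 and 0.000834). LIF, of the interleukin 6 family, rose from 83.2 CPM to 130 with SR high, 110 with CR high and 101 with ZR high. Its log2 fold changes were 0.64 ± 0.06, 0.40 ± 0.06 and 0.28 ± 0.06 (edgeR adjusted p = 2.98e-13, 4.63e-08 and 0.000443). IL11, also of that family, fell from 30.5 CPM to 20.9 with ZR high, 21.3 with CR high and 21.3 with ZRR high (-0.55 ± 0.07, -0.52 ± 0.07 and -0.52 ± 0.08, edgeR adjusted p = 5.62e-07, 1.08e-07 and 2.58e-06) and rose to 41.7 with SR high (0.45 ± 0.07, edgeR adjusted p = 2.62e-06). IL6, IL1B and TNF did not pass the filter, with at most 6, 4 and 3 counts per library.

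Of the AP-1, C/EBP and RNA decay factors 12 of 15 rose and 1 fell with SR high, where 13.0% of all genes rose and 10.9% fell. With CR high 7 rose and 5 fell, where 18.5% rose and 16.7% fell. With PT high and ZR high 3 rose each and 0 and 1 fell, where 1.07% and 2.91% of all genes rose and 0.327% and 2.44% fell. SR high and CR high thus had more calls both in the list and over all genes. ATF3, a stress-induced AP-1 relative, rose from 7.84 to 32.1 CPM with SR high (2.03 ± 0.10) and 21.2 with CR high (1.43 ± 0.10, edgeR adjusted p = 1.20e-22 and 2.34e-17), while PT high was at 7.70. FOSL1 rose from 27.9 to 84.6 CPM with CR high (1.60 ± 0.07) and 45.4 with SR high (0.70 ± 0.07, edgeR adjusted p = 6.36e-24 and 9.19e-11) and was at 31.9 with PT high. With ZR high FOSL1 rose as well, to 45.9 CPM (0.72 ± 0.07, edgeR adjusted p = 2.16e-10). JUN also rose with ZR high, from 30.4 to 39.2 CPM (0.36 ± 0.06, edgeR adjusted p = 4.17e-05). Direct differences of PT high from SR high were -2.06 ± 0.09 for ATF3 and -0.68 ± 0.06 for JUN (edgeR adjusted p = 5.09e-23 and 1.09e-12).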

How the data were processed

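Directional mRNA libraries were read as 100-base pairs, per the labels' protocols. The authors deposited 1 table of estimated counts, by Ensembl gene and without normalisation. Tools in the submitters' processing notes are STAR 2.7.3a, RSEM 1.3.3, Trim Galore 0.6.5 and FastQC 0.11.9, with GRCh38. Annotation release and strand setting: not given in the sources used here. Of 269 columns 60 carry labels of this series, and 209 were not used. Estimated counts were rounded. A current name table gave symbols to 41209 identifiers and GENCODE 29 to 15846, while 3620 without a name held 0.0579% of counts. R 4.3.3 and edgeR 4.0.16 were used (filterByExpr by group, TMM, robust quasi-likelihood fit, 1 column per group, 40 residual degrees of freedom, 45 comparisons, Benjamini-Hochberg within each). Libraries held 17420373 to 36479629 counts. The common biological coefficient of variation was 7.04%. Replicates correlated at 0.982 or above. Between any pair of them chi-square per degree of freedom was at least 2.2, and all 60 libraries were used as separate samples.

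Alternatives were DESeq2 1.42.0, its size factors in edgeR, no filter on low counts, only the libraries compared, a replicate block, the slope of log2 CPM on log2 length of the longest GENCODE 29 transcript as a covariate, CXCL1 to CXCL3 summed, and each library left out. The fit was tested on simulated data. The members and lists were chosen with earlier results of these data known. All 7 members are named throughout, and of each other list at most 4 called genes per comparison with the smallest p. Genes alike in pattern are the 8 with the highest r to the mean member profile and the 2 highest per member, among genes with a mean log2 CPM of at least 0. CCL5, TLR4, LY96, the receptors and the untested cytokines were named after their values were seen.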

Additional observations from a re-analysis of the deposited data

Results flagged for a closer look

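In 3 chemokine genes the response to the high dose differed between the gingers in a test of the difference itself. The high-against-low change of Zingiberis Rhizoma Recens (ZRR) minus that of Zingiberis Rhizoma (ZR) was -1.58 for CXCL8, -0.46 for CXCL5 and -1.04 for CCL2 on the log2 scale (edgeR adjusted p = 0.0163, 0.00117 and 0.00661). All 3 calls were lost in a fit of only the 12 libraries concerned (edgeR adjusted p = 0.881, 0.466 and 0.529), that of CXCL8 also in 4 fits without 1 library and that of CCL2 in 1. For CCL2 the means were 7.24 CPM at the high and 6.92 CPM at the low dose of ZRR, and 15.0 and 6.95 CPM with ZR.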

How the results depend on the processing

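With DESeq2's size factors in edgeR, the 110 calls kept their direction and side of the threshold. All 45 counts of called chemokine genes were within 1.5 times those reported. Each of the 140 mean levels moved by less than the SD of its libraries. The replicate numbers did not pair the libraries, and with a replicate block all 45 counts were again within 1.5 times those reported (6 of 7 with PT high) and the 110 calls were kept. For the other alternatives, only counts that changed by more than 1.5 times, or from or to 0, are listed, so an unlisted count may have changed less. Without the filter on low counts the number of called members was 1 for wortmannin, 5 for PT medium against vehicle, 0 for ZRR high against medium, 2 for PT medium against low and 1 for ZRR medium against ZR medium. With the length slope it was 2 for ZR medium and 3 for PT medium against vehicle, 2 for ZRR high against medium, 5 for CR high against medium and 4 for CR medium against low. DESeq2 called 1 for ZR medium against vehicle, 2 for ZRR high against medium and 3 for ZR high against medium. Its adjusted p was missing, and counted as no call, for CXCL8, CXCL2 and CCL2 in the first of these. In the last it was missing for CXCL8, CXCL1 and CXCL3. In fits of only the libraries compared the number of called members was 1 for ZRR medium, 2 for PT medium and 2 for CR low against vehicle, 1 for ZRR high against low, 2 for ZRR high against medium, 0 for CR medium against low and 0 for the difference between the gingers, in fits with fewer samples. With 1 library left out the number ranged from 1 to 2 for wortmannin, 0 to 4 for ZR medium, 0 to 1 for PT medium and 2 to 4 for CR low against vehicle. It ranged from 1 to 2 for ZRR high against low, 3 to 5 for CR high against low, 0 to 1 for ZRR high against medium, 0 to 1 for PT medium against low, 1 to 2 for CR medium against low, 1 to 3 for PT high against ZR high and 1 to 2 for SR high against CR high. Smaller ranges were 5 to 6 for CR high against vehicle and ZR high against low. They were 4 to 5 for ZR high against medium and ZRR high against ZR high, and 2 to 3 for CR high against medium and the difference between the gingers. With CXCL1, CXCL2 and CXCL3 summed, the difference of PT high was 0.01 from SR high and 0.11 from CR high, where CXCL2 alone was -0.66 and -0.67. Beyond these constructions, the cause of each change was not tested. Depth limits CCL20 most, with 2 to 29 counts per library.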
